A study of Mus musculus with 9 samples.

Results

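The histone genes of mouse embryos were examined as a family. They were chosen by symbol, as every row whose name begins with Hist1h to Hist4h, H2af, H3f3 or H1f, and the rule found 72 of the 16070 genes listed. Of these, 61 lie in the Hist clusters and 11 elsewhere. They were sorted into H1 (6 genes, H1f0 among them), H2A (16), H2B (15), H3 (12), H4 (13) and the 10 H2af and H3f3 genes, called the variant class here. RNA was sequenced from C57BL/6 embryos at E4.5, cultured in vitro, 4.5 days after microinjection. The 9 libraries form 3 groups of 3, labelled wild type (WT), H3R17H (a substitution of arginine 17 of histone H3) and Carm1-/- (loss of Carm1, the enzyme that methylates that arginine). The labels describe the source both as the embryo and as a single cell derived from embryos, and do not say which H3 gene carries the substitution. Whether each library is another embryo is not stated, and a p-value then reflects only how these libraries vary, which may be technical. Values are FPKM, fragments scaled by the length of the transcript and the size of the library, without read counts, so the depth behind each value is not known.

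Replication-dependent histone genes supply the core histones H2A, H2B, H3 and H4 and the linker H1 to new DNA in S phase. They sit in clusters as many near-identical copies, mostly lack introns, and their messages usually end in a conserved stem-loop, bound by SLBP, in place of a poly(A) tail. Variant genes such as H2afz, H2afy and H3f3a have introns, give polyadenylated messages and are expressed through the cell cycle. Whether the reverse transcription used here was primed on poly(A) is not given in the sources used here, so a low value of a clustered gene cannot be told apart from poor capture of a message without a tail.

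The group labels were checked first. Carm1 read 8.86, 7.08 and 6.65 FPKM in the WT libraries, 1.88, 0.0215 and 1.22 in the H3R17H libraries, and 6.44, 12.7 and 9.52 in the Carm1-/- libraries. The low Carm1 values thus lay in the libraries titled H3R17H and not in those titled Carm1-/-. The sample descriptions and column names go the same way, since they begin with Carm for the libraries titled H3R17H and with Hist for those titled Carm1-/-. An exchange of the 2 edited groups is possible. Groups are given by their titles throughout, and each direction stated for H3R17H or Carm1-/- holds only for the libraries that carry that title. Summed markers of the trophectoderm, the outer layer of the blastocyst, ran from 5690 to 8710 FPKM in WT, 1650 to 4650 in H3R17H and 2090 to 9170 in Carm1-/-, and all 12 of these markers were listed. Summed epiblast and inner cell mass markers (10 of 10 listed) ran from 198 to 252, 262 to 282 and 256 to 342 in the same order. Summed Y-linked transcripts were 30.7 to 35.7 FPKM in WT, 36.6 in replicate 1 of H3R17H, 28.1 in replicate 1 of Carm1-/-, and at most 0.00796 in the other 4 libraries.

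Arginine 17 is written into every H3 gene, so the codon was read from the gene models to show how the H3 messages differ there. With the start codon not counted, 13 of the H3 and H3f3 genes have an annotated coding sequence of the standard length, and codon 17 is CGC in 12 of them and AGG in 1, H3f3a. The stretches below run from codon 10 to codon 24, 5′ to 3′ on the coding strand, with codon 17 in capitals, and were read from GENCODE M21 transcripts on GRCm38. They belong to both H3f3 genes, the 2 most abundant clustered H3 genes, Hist1h3g and Hist1h3c, and Hist2h3c2, all within a coding exon.
H3f3a, chr1:180811852-180811896, minus strand: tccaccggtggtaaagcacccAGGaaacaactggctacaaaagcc
H3f3b, chr11:116023935-116023979, minus strand: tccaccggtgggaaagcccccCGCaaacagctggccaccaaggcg
Hist1h3g, chr13:23535476-23535520, plus strand: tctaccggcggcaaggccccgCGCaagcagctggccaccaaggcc
Hist1h3c, chr13:23745423-23745467, minus strand: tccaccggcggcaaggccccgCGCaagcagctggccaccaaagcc
Hist2h3c2, chr3:96238867-96238911, minus strand: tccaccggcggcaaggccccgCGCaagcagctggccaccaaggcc

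The RNA measured from H3 genes came almost wholly from H3f3a and H3f3b, the genes of the replacement histone H3.3. Poor capture of clustered messages without a tail could give such shares too, and was not tested. In every library these 2 genes together gave 95.3% to 98.4% of the summed FPKM of the 14 H3 and H3f3 genes compared. H3f3b read 346, 667 and 827 FPKM in WT, 305, 499 and 641 in H3R17H, and 350, 1073 and 410 in Carm1-/-. The 3 groups overlapped for H3f3b, and its WT libraries alone spanned more than a doubling. H3f3a read 278, 219 and 188 FPKM in WT, 402, 372 and 343 in H3R17H, and 167, 325 and 165 in Carm1-/-. All H3R17H libraries lay above all others for H3f3a. H3f3a made up 44.6%, 24.7% and 18.5% of the pair in WT, 56.9%, 42.7% and 34.9% in H3R17H, and 32.3%, 23.2% and 28.7% in Carm1-/-. The WT shares overlapped with those of each edited group, while every H3R17H share lay above every Carm1-/- share. The message with codon AGG, that of H3f3a, accordingly made up 18.2% to 54.3% of the H3 RNA whose codon was read. The 12 clustered H3 genes were each low. Hist1h3g, the highest by mean over the 9 libraries (6.29 FPKM), read 2.25, 2.62 and 4.27 in WT and 6.93, 9.38 and 7.86 in H3R17H. It read 2.52, 18.7 and 2.08 in Carm1-/-, where replicate 2 stood far above the other 2.

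**Figure D1:**
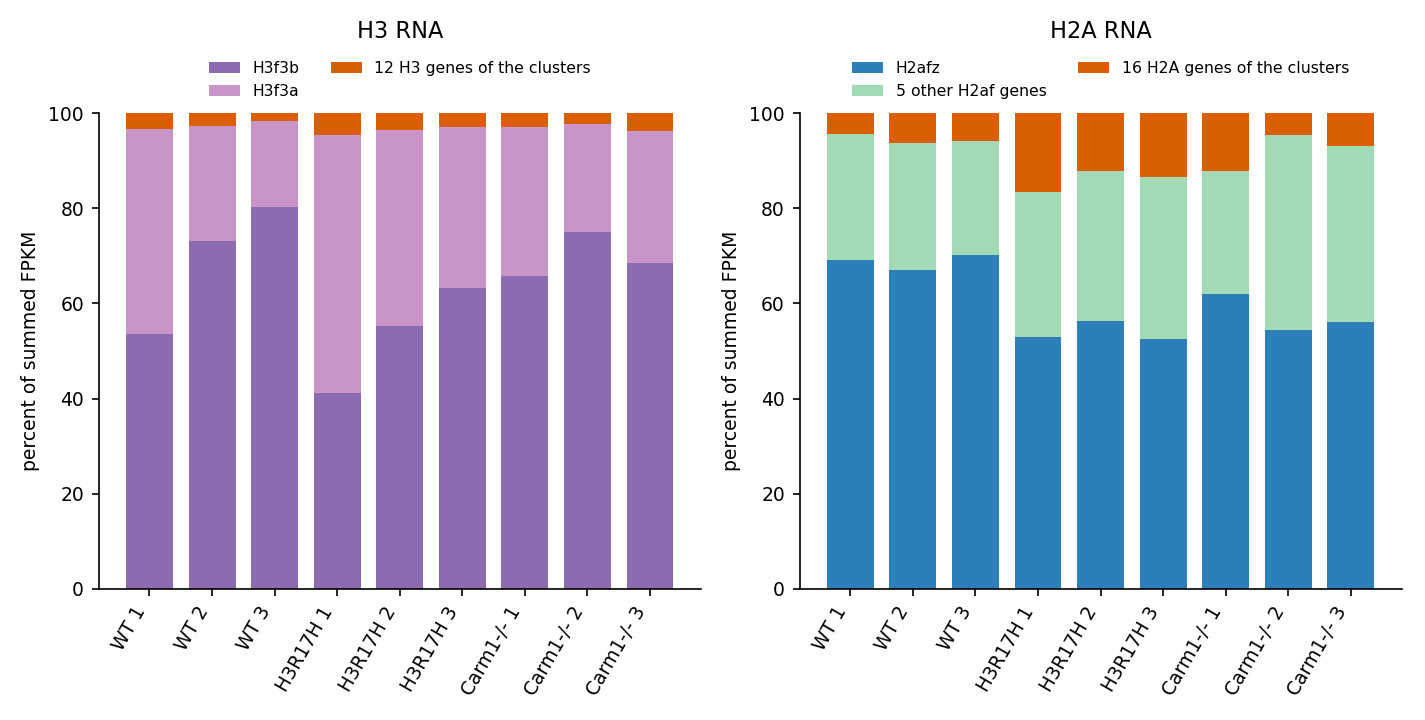
Share of the summed FPKM of H3 genes (left) and H2A genes (right) in each of the 9 libraries, in percent, stacked by gene or gene group. H3f3a and H3f3b fill 95.3% to 98.4% of every H3 bar, and the orange part of the H2A bars, the clustered genes, is larger in the 3 H3R17H libraries than in the WT libraries.

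The H2A RNA measured was also mostly from variant genes, with the same limit on capture. H2afz, which encodes H2A.Z, a variant found at promoters and other regulatory nucleosomes, was the most abundant histone gene by mean, at 1255 FPKM over the 9 libraries. It read 1684, 1610 and 1502 in WT, 1108, 1220 and 1016 in H3R17H, and 1041, 963 and 1149 in Carm1-/-. All 6 libraries of the edited groups lay below all 3 WT libraries. H2afz made up 67.0% to 70.3% of all H2A RNA in WT, 52.6% to 56.3% in H3R17H and 54.3% to 62.0% in Carm1-/-. The 6 H2af genes together gave 93.7% to 95.6% of H2A RNA in WT, 83.3% to 87.8% in H3R17H and 87.9% to 95.4% in Carm1-/-.

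The other H2af genes did not share 1 pattern. H2afx, whose product is phosphorylated at DNA breaks, read 347, 317 and 185 FPKM in WT, 261, 240 and 260 in H3R17H, and 204, 153 and 243 in Carm1-/-, with overlapping groups. H2afv, a second H2A.Z gene, read 130, 126 and 91.0 in WT, 99.7, 103 and 90.3 in H3R17H, and 77.2, 226 and 123 in Carm1-/-, also with overlap. H2afj read 140, 162 and 185 in WT, 262, 331 and 290 in H3R17H, and 142, 344 and 373 in Carm1-/-. For H2afj only replicate 1 of Carm1-/- fell within the WT range among the 6 edited libraries. H2afy, which encodes macroH2A1, a variant with a large extra domain that is enriched on silent chromatin, read 28.9, 34.0 and 47.6 in WT. It read 12.6, 8.28 and 15.8 in H3R17H, and 11.9, 5.24 and 17.9 in Carm1-/-. Every edited library lay below every WT library for H2afy. H2afy2, the gene of macroH2A2, averaged 0.907 FPKM and did not exceed 3.19 in any library.

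A few members carried much of the RNA of a class, but which member led differed between libraries. Hist1h4d gave 58.6% to 76.4% of H4 RNA in WT, H3R17H and replicate 1 of Carm1-/-, and 23.8% and 30.4% in replicates 2 and 3, where Hist1h4i gave more (46.7% and 37.7%). Hist1h2ae gave 43.3% to 60.1% of clustered H2A RNA in the same 7 libraries, and 14.5% and 7.06% in those 2, where Hist3h2a led with 60.3% and 62.8%. H1f0, the replacement linker histone of cells that leave the cycle, gave 26.9% to 44.8% of H1 RNA in WT and 25% to 44.6% in H3R17H. In Carm1-/- it gave 33.1%, 92.9% and 89.5%. Hist1h2bc gave 45.4% to 87.2% of H2B RNA over the 9 libraries. Hist1h3g gave 9.21% to 30.2% of clustered H3 RNA in 8 of them and 57% in replicate 2 of Carm1-/-. Detection, set at 1 FPKM in at least 3 libraries, was reached by 6 of 6 H1 genes, 10 of 16 H2A, 9 of 15 H2B, 10 of 12 H3, 9 of 13 H4 and 10 of 10 variant genes. These 54 genes were tested and 18 were not. The 4 genes Hist1h4j, H3f3c, Hist2h3c2 and Hist2h2bb reached the minimum with no WT library at 1 FPKM, so they could enter only through the edited groups. A mean of at least 5 FPKM was reached by 21 genes, 13 of them from the Hist clusters. The 18 untested genes had means of 0.197 to 1.06 FPKM. The lowest was Hist1h2aa, an H2A gene known from the testis, which was listed at 0 in all WT libraries. The pseudogenes H3f3a-ps1 and H3f3c passed the minimum with means of 1.35 and 1.19 FPKM, and reads of H3f3a could have been assigned to them.

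The other leading members varied in their own ways. Hist1h4i read 31.1, 34.4 and 44.9 FPKM in WT, 63.5, 92.5 and 52.5 in H3R17H, and 28.5, 56.98 and 71.5 in Carm1-/-. It was higher in every H3R17H library than in WT, with Carm1-/- across both. Hist1h2bc, the main H2B gene, read 62.5, 47.9 and 24.5 in WT, 73.1, 88.3 and 91.8 in H3R17H, and 16.9, 172 and 67.5 in Carm1-/-. Its Carm1-/- libraries held both the lowest and the highest of the 9 values. The replicative linker gene Hist1h1b read 18.4, 22.99 and 26.97 in WT, 25.7, 15.4 and 30.7 in H3R17H, and 49.5, 2.55 and 15.97 in Carm1-/-. Hist1h1e, a second such gene, read 9.06, 11.0 and 10.3 in WT, 14.9, 13.2 and 12.9 in H3R17H, and 13.8, 3.75 and 5.92 in Carm1-/-. Replicate 1 was the highest Carm1-/- library for both, as it was for Hist1h2ae, Hist1h2ab and Hist2h2ac, but it was the lowest for Hist3h2a and Hist1h2ai. Hist1h2ag, an H2A gene, read 7.05, 10.9 and 11.9 in WT and 10.2, 8.68 and 12.5 in H3R17H, with overlap. The H3 gene Hist1h3c read 9.25, 7.07 and 4.62 in WT, 6.82, 6.33 and 4.68 in H3R17H, and 6.87, 4.82 and 3.06 in Carm1-/-, so that not every abundant clustered gene was high in H3R17H.

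Many copies cannot be separated with confidence. Of 69 members with an annotated coding sequence, 38 were at least 97% identical over it to another member, and 4 had an identical partner (Hist1h2ao with Hist1h2ap, Hist1h4m with Hist1h4n). Hist1h2ab and Hist1h2ae were 98.2% and 99.2% identical to Hist1h2ad, which itself had a mean of 0.618 FPKM. Hist1h4d was 94.2% identical to its nearest relative, Hist1h4j. Reads of such copies may have been split or assigned among them in a way the table does not show, and values of single copies are uncertain for this reason. Class sums would be affected too if such reads were dropped or counted at every copy, which is not known.

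The clustered genes as a class stood highest in the libraries labelled H3R17H. Summed over the 61 genes they read 332, 437 and 380 FPKM in WT (383 ± 52.6, SD, n = 3), 793, 730 and 731 in H3R17H (751 ± 36.2, n = 3), and 478, 442 and 492 in Carm1-/- (471 ± 26.04, n = 3). H3R17H lay well above both other groups in this sum. WT and Carm1-/- were parted only narrowly, by replicate 2 of WT (437) and replicate 2 of Carm1-/- (442). Total FPKM differed between those libraries as well (541116 and 567858), so the order of WT and Carm1-/- is uncertain. The clustered genes made up 10.1%, 12.1% and 11.0% of all histone RNA in WT, 24.3%, 20.7% and 21.3% in H3R17H, and 19.0%, 12.1% and 15.6% in Carm1-/-. If a library holds more than 1 cell, fewer cells making a message and less message per cell cannot be told apart.

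By class, the H4 and clustered H2A sums set H3R17H apart from both other groups. H4 genes summed to 93.5, 152 and 139 FPKM in WT, 263, 288 and 279 in H3R17H, and 155, 122 and 190 in Carm1-/-. Clustered H2A genes summed to 108, 151 and 126 in WT, 349, 266 and 258 in H3R17H, and 202, 81.4 and 140 in Carm1-/-. For both classes all H3R17H libraries lay above all other libraries. H2B genes summed to 76.0, 66.5 and 54.0 in WT, 93.8, 114 and 110 in H3R17H, and 28.7, 198 and 119 in Carm1-/-. Clustered H3 genes summed to 22.0, 24.7 and 16.3 in WT, 34.6, 31.1 and 29.3 in H3R17H, and 15.4, 32.8 and 22.6 in Carm1-/-. In these 2 classes the H3R17H libraries lay above WT and the Carm1-/- libraries spanned both. These sums lean on single genes and do not show a rise across the class. Hist1h2bc gave 45.4% to 87.2% of the H2B sums, and 5 of 9 tested H2B genes were higher in H3R17H than in WT. Hist1h3g gave 9.21% to 57% of the clustered H3 sums, and 7 of 10 tested genes were higher. H1 genes summed to 45.3, 64.6 and 79.7 in WT, 69.7, 56.6 and 94.2 in H3R17H, and 114, 113 and 209 in Carm1-/-. There WT and H3R17H overlapped and Carm1-/- lay above both, with 37.8, 105 and 187 FPKM of its sums from H1f0. The variant class summed to 2958, 3141 and 3027 in WT, 2457, 2777 and 2660 in H3R17H, and 1995, 3092 and 2483 in Carm1-/-. All H3R17H libraries were below WT for this sum, and replicate 2 of Carm1-/- fell within the WT range.

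**Figure D2:**
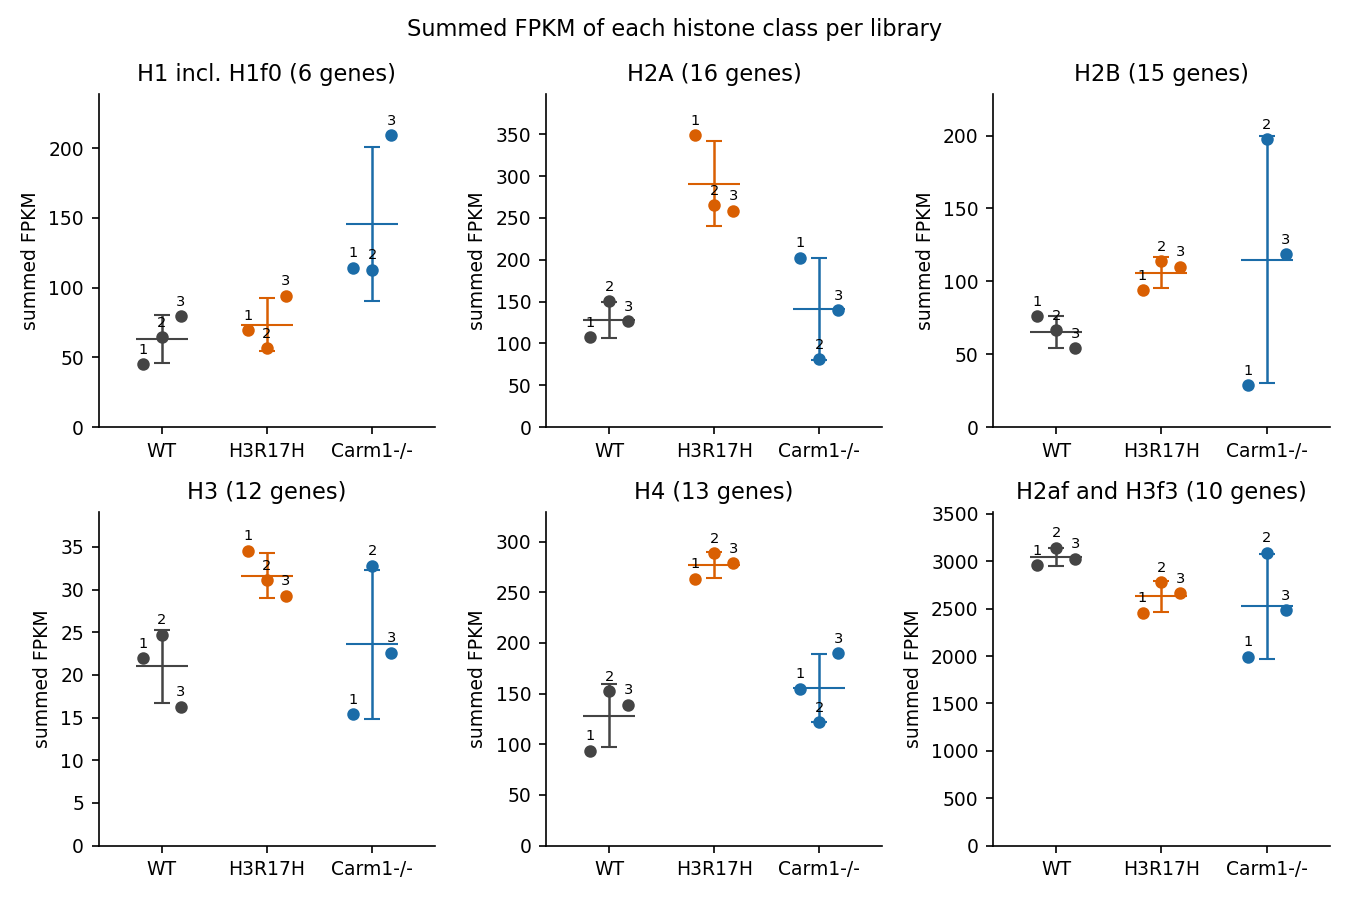
Summed FPKM of the genes of each histone class (vertical axis, from 0) in the 3 groups; points are libraries with their replicate number, bars the group mean and SD. H4 and clustered H2A sums of H3R17H lie above every other library, while the variant sum of H3R17H lies below WT.

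H3R17H was compared with WT to ask which histone genes differ with the substitution label. Clustered H2A and H4 genes were higher in H3R17H, and H2afy and H2afz were lower, but no histone gene passed the test over all genes. Hist1h4d, the main H4 gene, read 55.3, 99.9 and 81.5 FPKM in WT and 187, 178 and 212 in H3R17H. Hist1h2ae, the main clustered H2A gene, read 50.4, 90.5 and 65.6 in WT and 174, 119 and 130 in H3R17H. Neither gene's groups overlapped.

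Limma on log2(FPKM + 1), with Benjamini-Hochberg adjustment over 11850 genes, called 0 of 54 histone genes at adjusted p 0.05, and 0.0% of all tested genes. At an unadjusted p of 0.05, 8 histone genes were higher, 14.8% of those tested against 6.41% of all genes, and 2 were lower, 3.7% against 7.75%. The 8 include Hist2h3c2 and Hist1h2bn, which reached the minimum only with the H3R17H libraries counted and so lend no support. Over all 72 genes, tested or not, every H3R17H library exceeded every WT library for 24 (33.3%), against 11.1% of all listed genes. The opposite held for 4 (5.56%, against 13%). The 24 include the pseudogenes H3f3a-ps1, H3f3c and Hist1h2aj, and both Hist1h2ao and Hist1h2ap, whose coding sequences are identical. Copies that may share reads are thus counted separately. Some of the 24 lay near the floor, such as Hist1h2aj and Hist2h3c1, with means of 0.333 and 0.345 FPKM. Of the 54 tested genes, 37 had a higher mean in H3R17H and the median difference was 0.34 on the log2 scale, beside 47.7% and -0.03 for all tested genes. Without the minimum, which can favour genes high in 1 group, 43 of 72 were higher and the median was 0.14. Among the 13 clustered genes of mean at least 5 FPKM, 11 were higher, with a median of 0.98. For all tested genes of that level these values were 3134 of 6448 and -0.02. Higher without overlap were 9 of the 13 clustered genes, beside 1012 of all 6454 genes of that level. Of the 43 tested clustered genes, 32 were higher. By class the median difference was 0.70 for H2A (9 of 10 higher), 0.31 for H4 (7 of 9), 0.35 for H1 (5 of 6), 0.26 for H3 (7 of 10), 0.01 for H2B (5 of 9) and -0.17 for the variant class (4 of 10).

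The 5 histone genes of smallest p did not pass. H2afy was lower by 1.52 on the log2(FPKM + 1) scale (difference -1.52, SE 0.415, adjusted p = 0.224), and H2afz differed by -0.52 (SE 0.156, adjusted p = 0.237). Hist2h3c2, listed at 0 in all WT libraries, read 1.43, 3.13 and 1.76 in H3R17H, a fitted difference of 1.60 (adjusted p = 0.229). It could be tested only because the edited libraries reached the minimum, so its p is no support for a difference. Hist1h4d differed by 1.31 (SE 0.424, adjusted p = 0.248). Hist1h2ab, a further H2A gene, read 9.15, 14.5 and 11.6 in WT and 64.2, 31.3 and 37.3 in H3R17H, a difference of 1.78 (SE 0.622, adjusted p = 0.275). The H3.3 genes differed by 0.72 (H3f3a, adjusted p = 0.302) and -0.32 (H3f3b, adjusted p = 0.777). For H2afy, H2afz, Hist2h3c2, Hist1h4d, Hist1h2ab and H3f3a no H3R17H library reached into the WT range.

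The calls changed with the libraries in the fit. When only WT and H3R17H were fitted, limma called 5 histone genes higher, beside 0.945% of all genes, and 1 lower, beside 1.08%. Those higher were Hist1h2ab (1.78, adjusted p = 0.0369), Hist2h2ac (1.51, 0.0364), Hist1h4d (1.31, 0.038), Hist2h3c2 (1.60, 0.0425) and H2afj (0.86, 0.0465), each adjusted p from limma. Hist2h3c2 entered the test only through the edited libraries and does not count as support. The gene that fell was H2afy (-1.53, adjusted p = 0.0423). Hist2h2ac read 12.01, 14.0 and 18.3 FPKM in WT and 56.6, 38.2 and 37.6 in H3R17H. Only 1 H3R17H library, replicate 1, held Y-linked transcripts as the WT libraries did, and its values for Hist1h2ab, Hist2h2ac and Hist1h2ae were the highest of its group. With a term for these transcripts limma gave Hist1h2ab 2.91, Hist2h2ac 2.67, Hist1h4d 1.80 and H2afy -1.40, and H2afj 0.33, and none passed (adjusted p 0.457 to 0.852). All WT libraries held these transcripts, so the term rests on 1 library with them in each edited group. In replicate 1 of H3R17H markers of the two-cell stage summed to 212 FPKM against 0.2 to 1.07 in WT. The trophectoderm sum was below WT in all 3 H3R17H libraries. The part of these markers in the histone values was not tested.

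**Figure D3:**
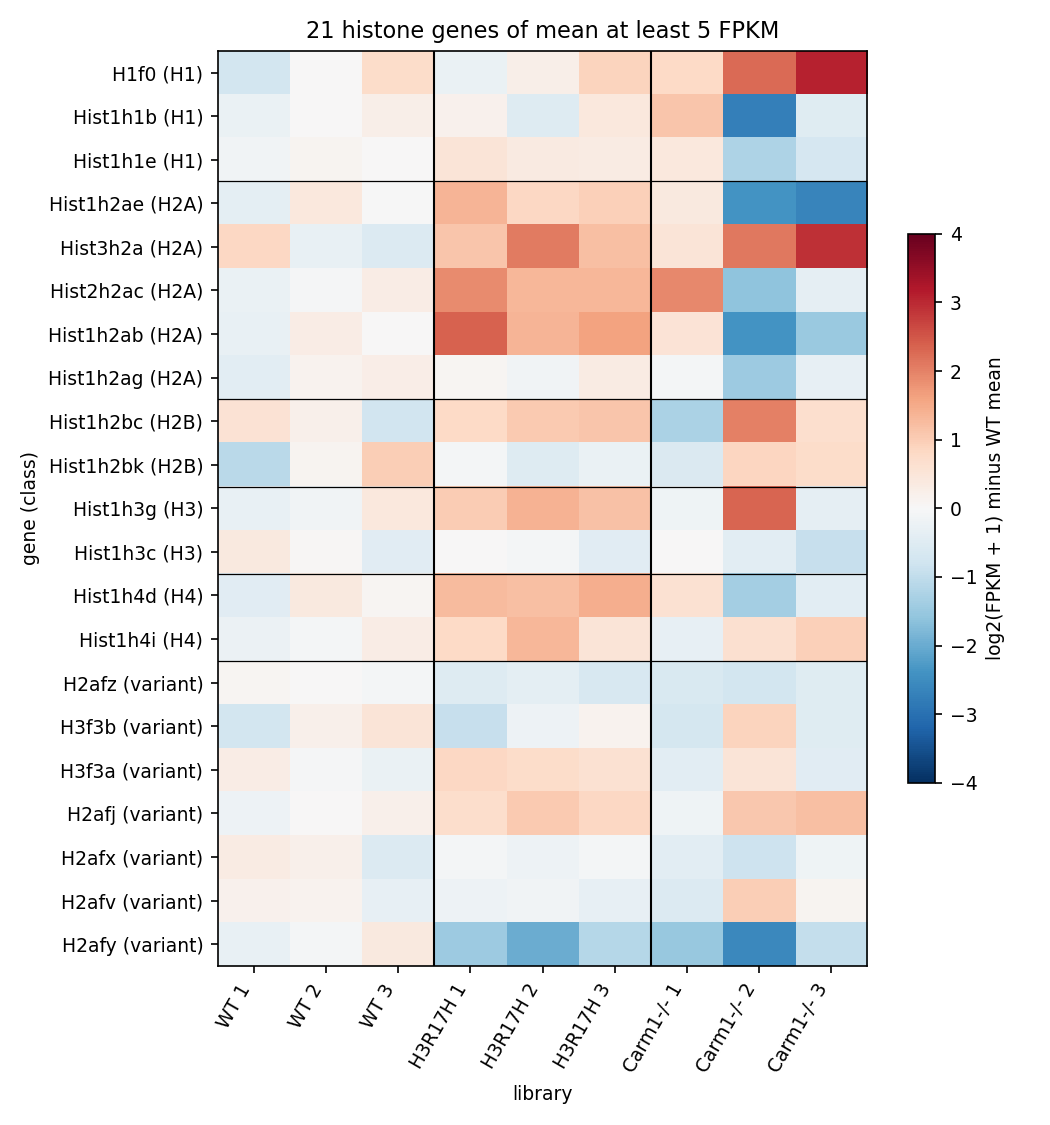
Difference of log2(FPKM + 1) from the WT mean, by library (columns) for the 21 histone genes of mean at least 5 FPKM (rows, by class); red is higher and blue lower than the WT mean. The H3R17H columns are red for Hist1h2ae, Hist2h2ac, Hist1h2ab and Hist1h4d, and all 6 edited columns are blue for H2afz and H2afy.

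Carm1-/- was compared with WT to ask which histone genes differ with loss of Carm1, as labelled. H1f0 was higher and H2afy and H2afz lower in all 3 libraries, while the clustered H2A genes divided the Carm1-/- libraries. H1f0 read 12.2, 21.4 and 35.7 FPKM in WT, 17.4, 25.2 and 40.1 in H3R17H, and 37.8, 105 and 187 in Carm1-/-. Replicate 1 exceeded the highest WT library only narrowly, and replicates 2 and 3 stood far above. Hist1h2ae read 87.5 in replicate 1, within the WT range, and 11.8 and 9.85 in replicates 2 and 3. Hist1h2ab read 17.4, 1.38 and 3.49, and Hist2h2ac 57.4, 4.05 and 11.1. For these 2 genes replicate 1 lay above the WT range and replicates 2 and 3 below it.

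Limma called 0 of 54 histone genes at adjusted p 0.05, and 0.0% of all genes. At an unadjusted p of 0.05, 5 were higher (9.26%, beside 5.25% of all genes) and 3 lower (5.56%, beside 6.19%). The 5 include Hist1h2ak, which reached the minimum only with the Carm1-/- libraries counted. Without overlap between libraries, 2 of 72 were higher, H1f0 and Hist1h2ak (2.78%, beside 5.96%), and 8 lower (11.1%, beside 8.81%). Of the 54 tested, 23 had a higher mean, with a median difference of -0.11, beside 46.3% and -0.04 for all genes. H4 genes had a median of 0.81 (6 of 9 higher) and H1 genes one of -0.60 (5 of 6 lower, all but H1f0). The H4 median is the value of Hist1h4k, which read 0.196, 0 and 13.7 FPKM in Carm1-/- and so rests on replicate 3. The 6 also count both Hist1h4m and Hist1h4n, whose coding sequences are identical. Hist1h4d, the main H4 gene, differed by -0.39.

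The smallest p were those of H2afy (difference -1.68, SE 0.415, adjusted p = 0.231) and H2afz (-0.61, SE 0.156, adjusted p = 0.262). H1f0 differed by 2.05 (SE 0.563, adjusted p = 0.266) and Hist1h2ak, an H2A gene of mean 1.28 FPKM, by 1.28 (adjusted p = 0.272). Hist1h2ak reached 1 FPKM in all 3 Carm1-/- libraries, in 1 of WT and in 0 of H3R17H, so it passed the minimum through the group where it is high. Hist3h2a, the H2A gene of the Hist3 cluster, read 19.6, 8.53 and 7.004 in WT, 23.9, 48.6 and 25.9 in H3R17H, and 15.7, 49.1 and 87.7 in Carm1-/-. Its difference in Carm1-/- was 1.85 (SE 0.580, adjusted p = 0.300), and its replicate 1 lay within the WT range. H3f3a and H3f3b differed by -0.12 and -0.10 (adjusted p = 0.896 and 0.949), below their standard errors of 0.274 and 0.458. The Carm1-/- and H3R17H comparisons share the WT libraries, so the low H2afy and H2afz values in both rest on the same 3 control values.

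Replicate 1 of Carm1-/- stood apart from replicates 2 and 3. It had the Y-linked transcripts that they lacked and a trophectoderm sum of 9170 FPKM, above all other libraries, against 2090 and 2610. Without it limma called 6 histone genes higher, beside 2.5% of all genes, and 2 lower, beside 2.14%. Those higher were H1f0 (2.67, adjusted p = 0.02), H2afj (1.15, 0.0174), Hist3h2a (2.52, 0.0219), Hist1h4h (1.92, 0.0369), Hist1h4m (2.32, 0.0388) and Hist1h4n (2.28, 0.0326), of which the last 2 share 1 coding sequence. Hist1h2ae (-2.53, adjusted p = 0.00748) and Hist1h2ab (-1.94, adjusted p = 0.0309) fell. In these calls the label cannot be told apart from the Y-linked transcripts, which all WT libraries held and replicates 2 and 3 lacked. With the Y-linked term in place of leaving replicate 1 out, H1f0 differed by 1.15, Hist1h2ae by -0.42 and Hist1h2ab by 0.01. H2afy and H2afz differed by -1.56 and -0.61, and none of these genes passed (limma adjusted p 0.884 to 0.999). That term too rests on 1 library with such transcripts in each edited group. The 2 edited libraries that held Y-linked transcripts read 12.6 and 11.9 for H2afy and 1108 and 1041 for H2afz, below all WT libraries. Oocyte and polar body markers, of which 3 of 9 were listed, summed to 22.1 and 7.03 FPKM in replicates 2 and 3, against 0.18 to 2.27 in the other 7 libraries. Primitive endoderm markers (9 of 10 listed) summed to 86.3 and 101 in replicates 2 and 3, against 180 in replicate 1 and 170 to 223 in WT. Two-cell markers (5 of 7 listed) summed to 39.1 in replicate 2, 0 in replicate 1 and 2.94 in replicate 3. Their part in the histone values was not tested.

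**Figure D4:**
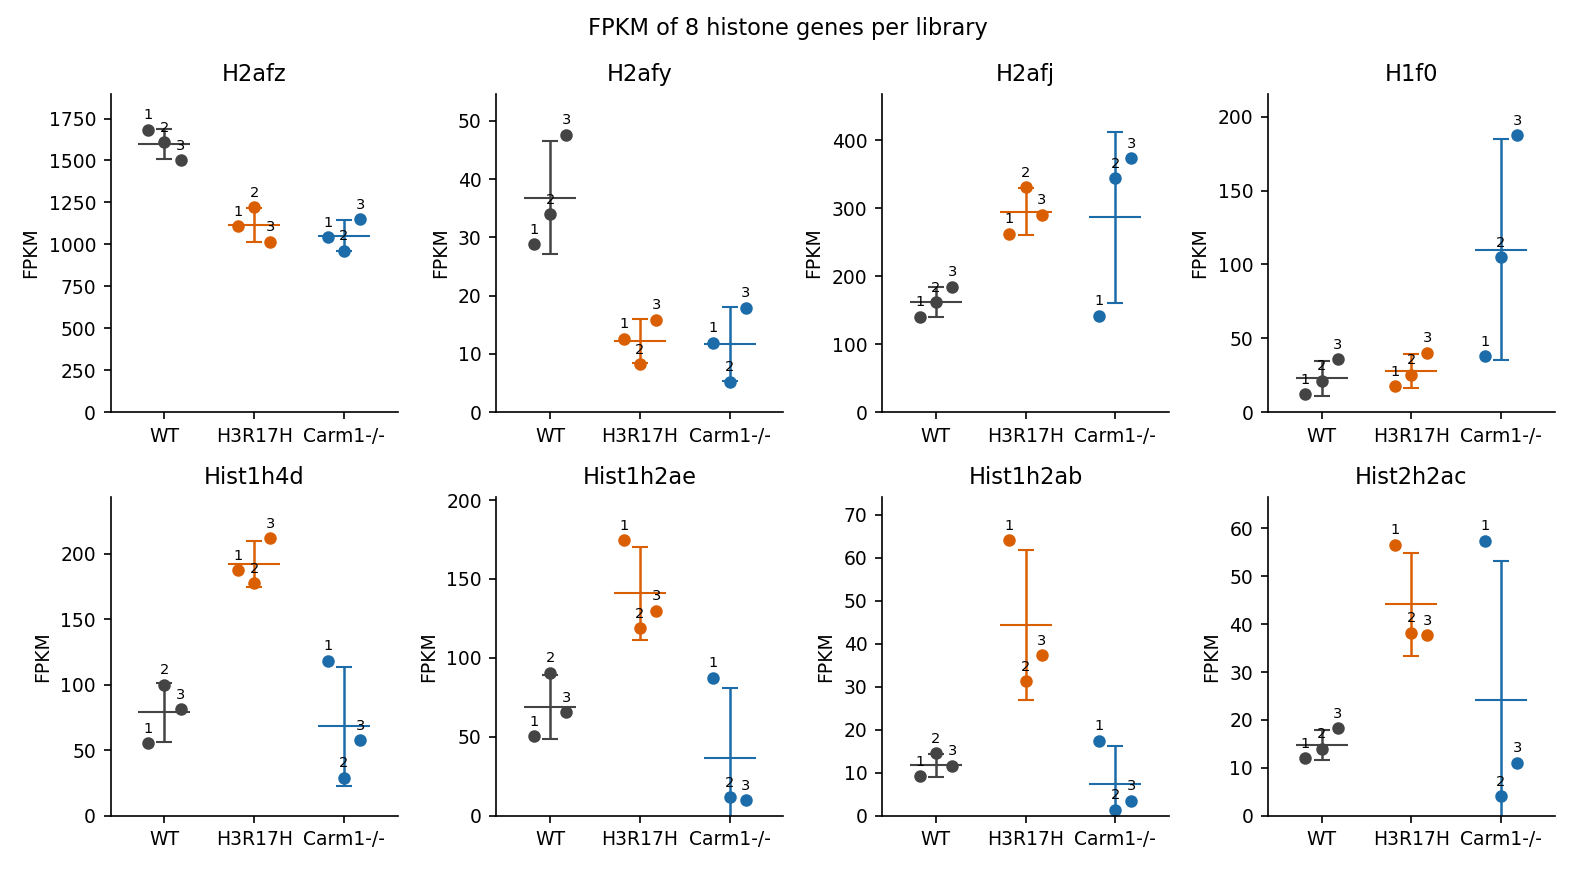
FPKM (vertical axis, from 0) of 8 histone genes; points are libraries with their replicate number, bars the group mean and SD, drawn only above 0. H2afz and H2afy separate WT from all 6 edited libraries, and replicate 1 of Carm1-/- lies apart from replicates 2 and 3 for H2afj, Hist1h2ae and Hist2h2ac.

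Carm1-/- was set directly against H3R17H. Several clustered H2A genes, Hist1h4d and H3f3a read lower in Carm1-/-, and Hist1h2ak read higher, and none passed. Hist1h2ak read 0.0893, 1.27 and 0.697 FPKM in WT, 0.0259, 0.104 and 0.0970 in H3R17H, and 2.81, 1.87 and 4.53 in Carm1-/-. H3f3a was below the lowest H3R17H library (343 FPKM) in all 3 Carm1-/- libraries.

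Here too limma called 0 of 54 histone genes and 0.0% of all genes. At an unadjusted p of 0.05, 13 histone genes were lower (24.1%, beside 4.12% of all genes) and 3 higher (5.56%, beside 4.09%). The 13 include H3f3c, Hist1h1c and Hist1h3e, which reached the minimum only with the H3R17H libraries counted and so lend no support. They also count both Hist1h2ao and Hist1h2ap, whose coding sequences are identical. Without overlap, 11 of 72 were lower (15.3%, beside 5.54%) and 1 higher (1.39%, beside 4.38%). The median difference was -0.37 (17 of 54 higher), beside -0.01 for all genes. It was -0.81 for H2A, -0.81 for H1, -0.51 for H3, -0.38 for H2B, -0.25 for the variant class and 0.29 for H4. The smallest p belonged to Hist1h2ak (1.87, SE 0.377, adjusted p = 0.245), which lends no support because of how it passed the minimum, Hist1h2ab (-2.89, SE 0.622, adjusted p = 0.313), Hist1h4d (-1.70, adjusted p = 0.383), Hist1h2ae (-2.60, adjusted p = 0.383) and Hist1h3e (-1.70, adjusted p = 0.438). H3f3a differed by -0.84 (adjusted p = 0.485) and H3f3b by 0.22 (adjusted p = 0.923). Without replicate 1 of Carm1-/-, Hist1h2ae (-3.57, limma adjusted p = 0.00294) and Hist1h2ab (-3.73, limma adjusted p = 0.0195) passed.

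**Figure D5:**
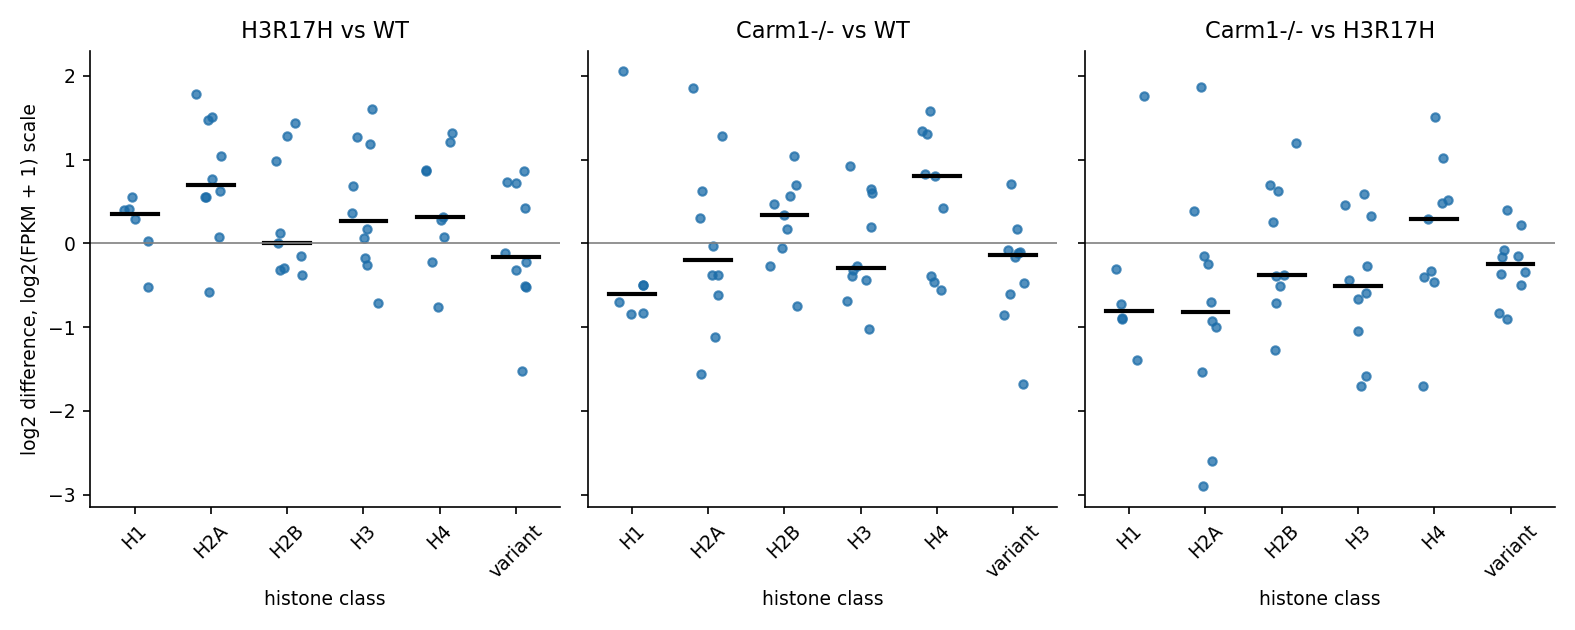
Difference between group means on the log2(FPKM + 1) scale (vertical axis) for the 54 tested histone genes in 3 comparisons, by class; points are genes, black lines class medians, and sideways scatter within a class carries no meaning. The H2A median is 0.70 for H3R17H vs WT and -0.81 for Carm1-/- vs H3R17H.

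The ends of the clustered messages were read from the gene models to see in which annotated transcripts the stem-loop motif lies. The motif GGCNCTTTTNAGNGCC, on the transcript strand, lay in a transcript of 39 of the 61 clustered genes and of 1 other, H2afx, and in 0.0799% of 58797 coding transcripts of the annotation. On the other strand it lay in none of the members. The motif is shown in capitals for Hist1h4d, Hist1h2ae, Hist1h2ab and Hist2h2ac, which were high together in H3R17H, with the bases on either side. It is also shown for H2afx and for Hist2h3c2, which entered the test only through the edited libraries.
Hist1h4d, chr13:23581946-23581969, plus strand: caaaGGCCCTTTTCAGGGCCacta
Hist1h2ae, chr13:23570664-23570687, minus strand: caaaGGCTCTTTTCAGAGCCattc
Hist1h2ab, chr13:23751568-23751591, plus strand: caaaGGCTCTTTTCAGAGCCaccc
Hist2h2ac, chr3:96220414-96220437, minus strand: aaaaGGCTCTTTTTAGAGCCacca
Hist2h3c2, chr3:96238481-96238504, minus strand: caaaGGCTCTTTTCAGAGCCacca
H2afx, chr9:44335236-44335259, plus strand: caaaGGCCCTTTTAAGGGCCacca

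The annotated transcript did not stop at the stem-loop in all of these genes. It ran on for 11 bases in Hist1h2ab and 57 in Hist2h2ac, but for 151 in Hist1h2ae, 377 in Hist2h3c2 and 770 in Hist1h4d. For Hist1h2ae the last 30 bases of the transcript hold a poly(A) signal, AATAAA, in capitals. So do those of at least 1 of the 8 annotated H2afy transcripts. The H2afy transcript shown ends inside the gene, short of the far end of the gene at 56073619.
Hist1h2ae, chr13:23570517-23570546, minus strand: ccAATAAAtgggtcaatttttttcagattc
H2afy, chr13:56095556-56095585, minus strand: tcttattgagAATAAAaatgatgcaaaggc
Such a signal (AATAAA or ATTAAA in the last 40 bases) was found in 14 clustered genes, whose median of mean FPKM was 1.11, against 1.79 in the 47 without. The median was 1.79 for the 39 with a stem-loop, of which 28 were detected. It was 1.31 for the 22 without, of which 15 were detected. Many of the 22 have gene models that end at or near the stop codon. In Hist1h1b, Hist1h4k and Hist2h2bb 0 bases follow it, so a motif further on could not be found. A poly(A) signal beyond such an end would be missed too. These splits therefore partly reflect how far the annotation runs, and do not show which messages carry a stem-loop. The means ran from 0.198 to 113 FPKM with a stem-loop and from 0.197 to 71.7 without, and these features describe the gene models and not the molecules sequenced.

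Promoters were matched to RefSeq for 64 members, 55 of them clustered. In the 250 bases before the start, TATAAA on either strand lay in 27 of the 55 clustered promoters and 1 of 9 others, against 13% of 27025 promoters. CCAAT on either strand lay in 44 of 55 and 5 of 9, against 34.5%. The 130 bases before the start of 4 genes that read higher together in H3R17H are shown, from GRCm38.p6, with both motifs in capitals on whichever strand they fall. For Hist1h2ae the 250 bases reach into the promoter of its divergent neighbour Hist1h2bg, and its only TATAAA match is on the opposite strand, in that neighbour's promoter and outside the window shown. Where promoters overlap in this way, 1 match counts for both genes.
Hist1h4d, chr13:23581438-23581567, plus strand: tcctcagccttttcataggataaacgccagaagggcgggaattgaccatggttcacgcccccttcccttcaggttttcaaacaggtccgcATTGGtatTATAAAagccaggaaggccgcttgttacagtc
Hist1h2ab, chr13:23750958-23751087, plus strand: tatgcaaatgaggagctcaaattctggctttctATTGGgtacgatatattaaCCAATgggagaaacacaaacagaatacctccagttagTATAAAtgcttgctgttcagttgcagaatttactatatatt
Hist1h2ae, chr13:23571221-23571350, minus strand: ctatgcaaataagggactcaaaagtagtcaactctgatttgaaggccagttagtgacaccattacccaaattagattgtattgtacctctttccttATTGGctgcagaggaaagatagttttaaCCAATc
Hist2h2ac, chr3:96220881-96221010, minus strand: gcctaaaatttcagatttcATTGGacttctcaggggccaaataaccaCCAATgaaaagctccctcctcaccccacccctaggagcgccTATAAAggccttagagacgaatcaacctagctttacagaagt
Of these 4 genes, 3 belong to the Hist1 cluster on chromosome 13 (51 members between 21715763 and 23934851), and Hist2h2ac to the Hist2 cluster on chromosome 3, so the high values in H3R17H were not confined to 1 cluster. A match of letters is not evidence of a bound factor.

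The genes that make and handle histones were read as lists. In histone pre-mRNA processing and transcription, 0 of 17 tested genes passed in any of the 3 comparisons. The numbers higher and lower were 6 and 11 in H3R17H vs WT and 5 and 12 in Carm1-/- vs WT, with medians of -0.07 and -0.23. Slbp, whose product binds the stem-loop, read 104, 104 and 112 FPKM in WT, 81.1, 50 and 103 in H3R17H, and 76.4, 65.1 and 61.8 in Carm1-/-. All edited libraries lay below WT for Slbp (Carm1-/- difference -0.65, limma adjusted p = 0.396). Ccne1, the cyclin of S-phase entry, read 108, 79.3 and 64.2 in WT and 137, 129 and 131 in H3R17H, without overlap (0.68, limma adjusted p = 0.333). Lsm10, a part of the U7 particle that cuts histone pre-mRNA, read 28.4, 52.7 and 68.2 in WT and 34.6, 5.97 and 36.1 in H3R17H, and Coil, the coilin gene, 28.6, 24.3 and 39.9 in WT and 19.8, 6.87 and 14.9 in Carm1-/-.

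Of 30 tested histone chaperones and remodellers 0 passed. In H3R17H 21 were higher and 9 lower than WT, with a median of 0.16, and in Carm1-/- 17 were higher and 13 lower. Npm1, an abundant nucleolar chaperone, read 613, 547 and 421 FPKM in WT and 1115, 1223 and 814 in H3R17H (0.99, limma adjusted p = 0.237), and it passed when only those groups were fitted (limma adjusted p = 0.0486). Ipo4, an importin for H3 and H4, read 18.8, 10.8 and 8.82 in WT and 19.6, 34.1 and 21.2 in H3R17H. In Carm1-/- the genes of smallest p were Supt16, a subunit of the H2A-H2B chaperone FACT (58.9, 65.8 and 91.3 in WT against 31.0, 39.6 and 44.1), and Nap1l4 (88.0, 84.6 and 84.3 against 63.4, 66.1 and 59.3). Neither overlapped with WT and neither passed (limma adjusted p = 0.266 and 0.426).

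The S phase list was evenly divided in H3R17H. Of 25 genes 13 were higher and 12 lower than WT, with a median of 0.01, and 0 passed. In Carm1-/- 20 of 25 were lower than WT, with a median of -0.26, and 0 passed. Lig1, the ligase that joins Okazaki fragments, read 79.1, 66.5 and 75.7 FPKM in WT, 45.4, 30.5 and 48.7 in H3R17H, and 47.7, 43.0 and 57.4 in Carm1-/- (-0.84 in H3R17H and -0.58 in Carm1-/-, limma adjusted p = 0.232 and 0.405). Cdt1, a replication licensing factor, read 58.9, 43.5 and 29.7 in WT and 82.8, 60.6 and 70.1 in H3R17H, without a passing test (limma adjusted p = 0.328). Cenpa, the centromeric H3 outside the symbol rule, read 253, 281 and 224 in WT, 157, 173 and 217 in H3R17H, and 202, 132 and 183 in Carm1-/-, with every edited library below WT.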

How the data were processed

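The authors deposited gene-level FPKM in a single table whose columns are the libraries. Bowtie 0.12.2, mm10 and GRCm38 are named in the submitters' processing notes; the quantifier, its treatment of reads that match several copies, and the annotation are named nowhere in the sources used here. Columns were matched to samples by the sample descriptions, and groups come from the titles, although the descriptions begin with Carm for samples titled H3R17H and with Hist for samples titled Carm1-/-. Values were taken as log2(FPKM + 1), so a difference is on that scale and understates changes of low genes. A gene had to reach 1 FPKM in 3 or more libraries, and 11850 of 16070 did; these entered 1 limma fit over all 9 libraries with an intensity trend (limma 3.58.1, R 4.3.3), and the comparisons were contrasts of it, two-sided, with p-values adjusted by Benjamini-Hochberg across the whole tested table and called at 0.05. An exact test of 3 against 3 libraries cannot go below 0.1. Sums, shares, sequence searches and plots used Python 3.11.15, pandas 2.3.3, numpy 2.4.6 and matplotlib 3.10.9.

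The histone genes, the gene lists and the alternatives were chosen with earlier results of these data known. Levels are given for the up to 5 highest genes of a class, or their share of it, and tests for genes past the threshold, otherwise the 5 of smallest p, and for H3f3a and H3f3b. From each list the 2 genes of smallest p in each comparison with WT are named, except 1 that is not reported here. Genes named because they passed only in an alternative fit, or for non-overlapping libraries, were chosen after their values were seen. Genes of like pattern over the 9 libraries are not reported, because the libraries fall into groups. The 20 alternatives are described after the results. Replicate numbers were not taken as pairs.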

Additional observations from a re-analysis of the deposited data

Results flagged for a closer look

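Hist1h2ao and Hist1h2ap, H2A genes with identical coding sequences, were above every WT library in all 3 H3R17H libraries and below every WT library in all 3 Carm1-/- libraries. Hist1h2ao read 1.49, 1.29 and 1.28 FPKM in WT, 2.56, 2.05 and 2.75 in H3R17H, and 1.09, 0.281 and 1.22 in Carm1-/-. Hist1h2ap read 1.57, 1.61 and 1.83, then 3.21, 2.68 and 3.45, then 1.37, 0.465 and 1.47. The difference between the 2 edited groups was -0.926 for Hist1h2ao and -1.0 for Hist1h2ap on the log2(FPKM + 1) scale, with limma adjusted p of 0.511 and 0.477, so it did not pass. The copies may share reads and count as 1 observation.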

How the results depend on the processing

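The fit called 0 histone genes in each comparison, and the same 0 came from the replicate block, from quantile normalization, median-of-ratios scaling, pseudocounts of 0.1 and 5, a fit without the trend, no filter on low values or one at a mean of 5 FPKM, and the Y-linked term, which was chosen after seeing the data. Same-numbered libraries correlated at -0.0501 to 0.183 in their deviations, so the numbers do not pair them, and the block moved no count of calls. In H3R17H vs WT, array quality weights called 192 of all genes and 1 histone gene (Hist2h3c2, limma adjusted p = 0.0398, tested only through the edited libraries), fitting only the groups compared called 240 and 6, and a pseudocount of 5 called 1 and 0. In Carm1-/- vs WT a pseudocount of 0.1 and array weights each called 1 gene, no histone. In Carm1-/- vs H3R17H, pseudocounts of 0.1 and 5 each called 1 gene, median-of-ratios scaling and quantile normalization 2 each, and no trend 3, none a histone. Leaving out 1 library gave 0 to 125 genes in H3R17H vs WT, 0 to 549 genes and 0 to 8 histone genes in Carm1-/- vs WT, and 0 to 10 genes and 0 to 2 histone genes in Carm1-/- vs H3R17H; the highest count was each time without replicate 1 of Carm1-/-, and with fewer libraries the cause was not tested. At a mean of at least 5 FPKM, 3 H1, 5 H2A, 2 H2B, 2 H3 and 2 H4 genes were detected, since fewer genes pass.

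The share of tested histone genes with a higher mean in H3R17H, 68.5%, was 57.4% without replicate 1 of WT and with the Y-linked term, and in Carm1-/- vs WT it moved from 42.6% to 53.7% without replicate 1 of Carm1-/-. H3f3a and H3f3b, which did not pass anywhere, changed direction with single libraries: leaving out 1 library gave -0.437 to 0.048 for H3f3a and -0.602 to 0.204 for H3f3b in Carm1-/- vs WT, and -0.279 to 0.527 for H3f3b in Carm1-/- vs H3R17H. Hist1h2ab in Carm1-/- vs WT was 0.015 with the Y-linked term, against -1.11. The cause was not tested.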
